A study of Zea mays with 30 samples.

Results

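The genes described here are the maize histone deacetylases and histone acetyltransferases among the cDNAs of a laser microdissection (LM) study of the shoot apical meristem (SAM). They were found by name, as every spot whose annotated gene has a symbol or synonym starting with hda, hdt, hac, hag or srt and a number, or with rpd3 or hd2. The rule found 9 genes of the 866 genes named on the chips, at 47 of 49280 spots. Deacetylases made up 7 genes at 34 spots, and acetyltransferases 2 genes at 13 spots. No hag gene and no sirtuin (srt) gene was among the named spots.

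Each array compared RNA of ns mutant SAMs with RNA of nonmutant SAMs, labelled with Cy3 and Cy5 dye. The ns mutant seedlings were homozygous for *ns1-R* and *ns2-R*. Their nonmutant siblings carried *Ns1/ns1-R* and were also homozygous for *ns2-R*, so both SAM types carry the mutant *ns2* allele and differ in *ns1*, which encodes a WUSCHEL1-like homeobox factor of the lateral SAM. Each RNA sample came from a pool of SAMs, with the founder cells of the next leaf included, and was amplified by T7 RNA polymerase. Each of the 3 cDNA chips (SAM 1.1, 2.0 and 3.0) was hybridized to 6 replicates, 3 with the ns mutant in Cy5 and 3 with it in Cy3. The labels use replicate numbers 1 to 6 on every chip, and the same pools may have been used on all 3 chips, so agreement between chips is not independent replication.

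Acetyl groups on lysines of the histone tails loosen the contact between histones and DNA and serve as docking sites for other proteins. Acetyltransferases add them, which is associated with transcription, and deacetylases take them off. Plants have RPD3-type deacetylases, which are related to yeast Rpd3, and HD2-type deacetylases, a family found in plants and first described in maize as a nucleolar phosphoprotein. In the SAM, deacetylases of the HD2 and RPD3 types are known from *Arabidopsis* to take part in leaf polarity and in the silencing of meristem genes.

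The HD2-type genes had most of the spots. *hdt102*, also called HD2b, lay at 6, 3 and 5 spots of SAM 1.1, 2.0 and 3.0. *hdt103*, with the synonym Zm-HD2c, lay at 5, 2 and 3 spots of these chips, and only these 2 genes were on all 3 chips. The RPD3-type or HDA1-type genes were *hda106* (2 spots on SAM 1.1 and 1 on SAM 3.0), *HDA108* (synonym hd1b, 1 spot each on SAM 1.1 and SAM 2.0), *rpd3* (2 spots on SAM 2.0 and 1 on SAM 3.0), and *hda110* and *hda113* (1 spot each on SAM 3.0). The acetyltransferase *hac106* lay at 6 spots of SAM 1.1 and 4 of SAM 3.0. Its synonym hat1 is the name of the yeast enzyme that acetylates newly made histone H4. The acetyltransferase *hac108* lay at 1 spot of SAM 2.0 and 2 of SAM 3.0, and its synonym ham101 is a name used for plant acetyltransferases of the MYST family. The cDNAs BM078588 (*hdt102*), BM073350 (*rpd3*) and BM073581 (*hac106*) were each spotted on 2 chips.

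Across the arrays and scans, the median signal was 4.25 to 58.6 times the local background, and 0.0156% to 1.4% of the spots were at or below background. No member spot was at or below background on any scan, and 6 of the 47, all of *hdt102* or *hdt103*, had a saturated scan. By percentile of signal among the spots of a chip, the meristem markers had a median of 47.6 over 24 spots and ranged from 2.67 (*knox8*) to 95.9 (*kn1*). The leaf blade markers had a median of 36.1 over 20 spots and ranged from 2.84 (*pep1*) to 76.7 (*Ppdk1*). Lateral organ markers had a median of 69.8 over 19 spots, and vascular markers one of 86.8 over 17. Both lie above the median of the meristem markers. They ranged from 17.1 to 94.2 and from 12.3 to 99.5, so the ranges of the lists overlapped. Without replicate 1 of SAM 1.1, 405 of all spots of that chip passed the adjusted threshold, against 2 with it, and 0 of the 20 member spots did in either case.

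The signal of a spot is given here as its percentile, the rank of its mean log2 signal over both SAM types among all spots of its chip. It depends on the length and amount of the spotted cDNA as well as on the transcript, so the classes are described and not tested. HD2-type spots were the brighter deacetylases. Their median percentile was 75, 96.6 and 98.3 on SAM 1.1, 2.0 and 3.0, and 3 of 11, 4 of 5 and 6 of 8 lay above the 90th percentile. RPD3-type or HDA1-type spots were dimmer, with medians of 29.4, 45.7 and 55.2 on the same chips, and 0 of 10 lay above the 90th percentile.

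**Figure D1:**
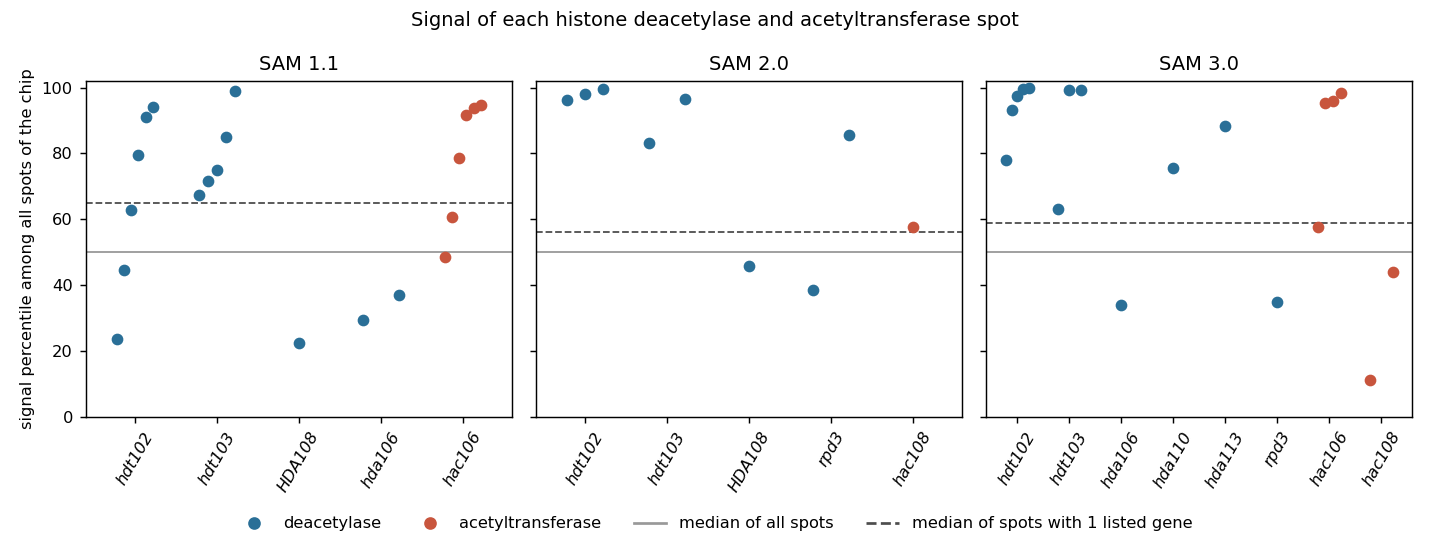
Signal percentile (vertical axis) of each member spot among all spots of its chip, by gene, with deacetylases in blue and acetyltransferases in red; the solid line is the median of all spots and the dashed line the median of spots with 1 listed gene. On SAM 3.0 the brightest *hdt102* spot lies at percentile 99.9 and the brightest *hdt103* spot at 99.3, and spots of 1 gene on 1 chip spread as widely as from 23.5 to 94.2.

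As whole classes, deacetylase spots had a median percentile of 69.4, 90.9 and 90.8 on SAM 1.1, 2.0 and 3.0. For acetyltransferase spots the medians were 85.1, 57.7 and 76.5. The acetyltransferases were thus the brighter class on SAM 1.1 and the deacetylases on the other chips. On SAM 1.1 *hac106* alone stood for the acetyltransferases, and on SAM 2.0 a single *hac108* spot. For comparison, spots with 1 listed gene had medians of 65, 56.2 and 58.7. With 1 value per gene in place of each spot, the deacetylase medians were 49.6, 75.9 and 81.4, and the acetyltransferase medians 78.0, 57.7 and 57.2, with the same order of the classes on each chip. These acetyltransferase values rest on 1 gene on SAM 1.1, 1 on SAM 2.0 and 2 on SAM 3.0, so the order is one of single genes more than of classes.

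The spots of 1 gene differed widely in signal. The 6 *hdt102* spots of SAM 1.1 ran from percentile 23.5 to 94.2, while the 3 of SAM 2.0 ran from 96.3 to 99.5 and the 5 of SAM 3.0 from 78.1 to 99.9. *hdt103* spots lay between 67.4 and 99.1 on SAM 1.1, while those of SAM 2.0 lay at 83.2 and 96.6 and those of SAM 3.0 between 63.2 and 99.3. *hac106* spots covered 48.4 to 94.7 on SAM 1.1, and 57.5 to 98.5 on SAM 3.0. Where the same cDNA was on 2 chips, its place was similar: BM078588 of *hdt102* lay at 99.5 on SAM 2.0 and 99.9 on SAM 3.0, BM073350 of *rpd3* at 38.5 and 34.7, and BM073581 of *hac106* at 48.4 on SAM 1.1 and 57.5 on SAM 3.0. The dimmest member was *hac108* at spot 13417 of SAM 3.0, at percentile 11.1, with a median signal 1.71 times the local background in ns mutant SAMs and 1.82 times in nonmutant SAMs. The other dim genes were *HDA108*, at 22.4 on SAM 1.1 and 45.7 on SAM 2.0, and *hda106*, at 29.4 to 37.0 over both of its chips. *hda110* lay at 75.7 and *hda113* at 88.4 on SAM 3.0, and the second *rpd3* cDNA of SAM 2.0 (BG517780) at 85.5.

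To ask whether loss of *ns1* function went with a change in these genes, the ratio of ns mutant to nonmutant signal was fitted at each spot over the 6 arrays of its chip, with a dye effect, and tested with limma. Values after ± are standard errors (SE) of the limma fit to the 6 arrays of the chip. They are moderated, with variance information shared over all spots, or all named genes, of the chip. They are therefore not the spread of the 6 arrays alone. In none of the 47 member spots did the ns mutant SAM differ from the nonmutant SAM past the adjusted threshold of 0.05. Among all spots, 0.0104%, 0.0355% and 0.0125% passed on SAM 1.1, 2.0 and 3.0. At an unadjusted p under 0.05 there was 1 member spot, *hac108* on SAM 2.0, while 5.18%, 6.48% and 5.19% of all spots of the chips were under that limit. The fitted ratios of the members ran from 0.846 to 1.27, with 21 spots higher and 26 lower in ns mutant SAMs. Of all spots 54.4%, 49.1% and 50.4% were lower on SAM 1.1, 2.0 and 3.0, and of spots with 1 listed gene 62.8%, 51.4% and 58%. Standard errors on the log2 scale were 0.0713 to 0.163.

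**Figure D2:**
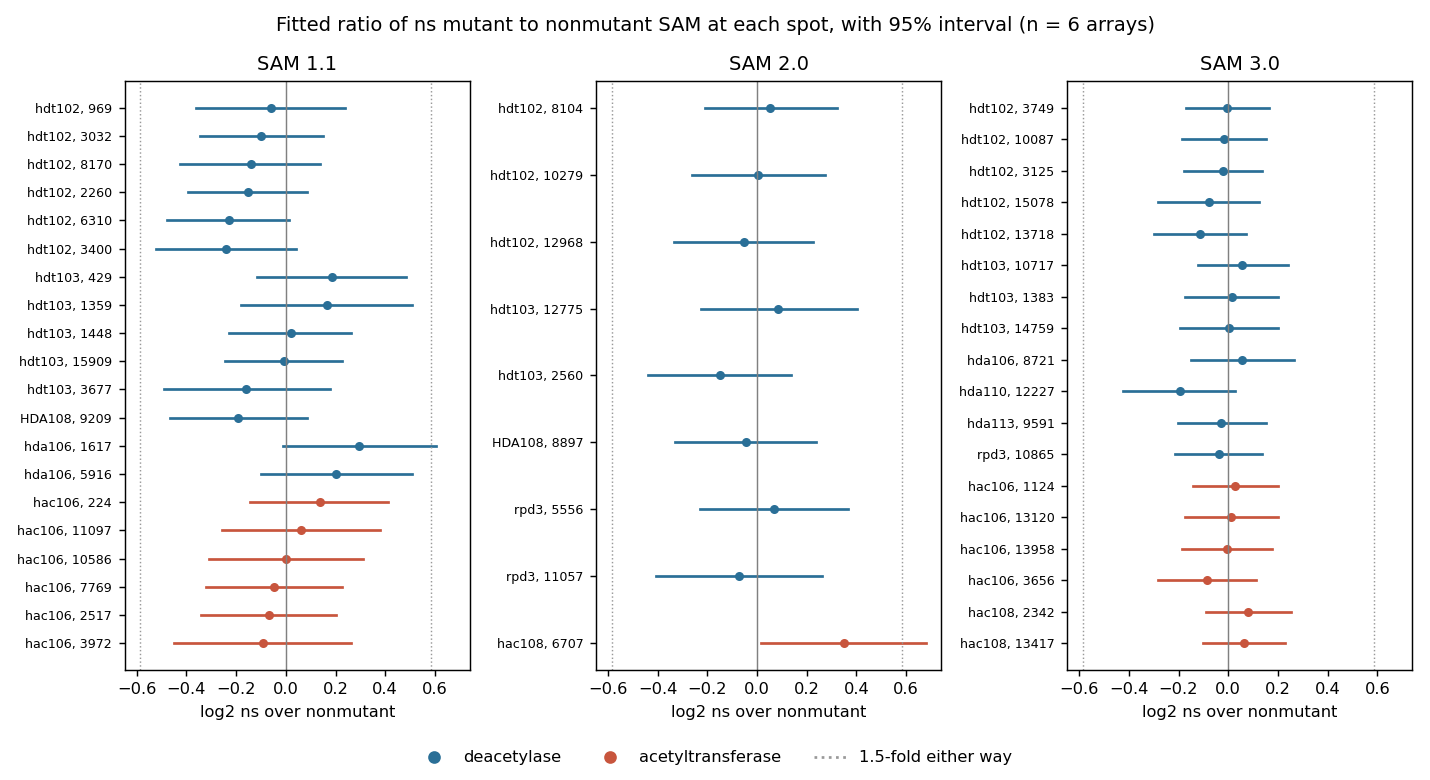
Fitted log2 ratio of ns mutant to nonmutant signal (horizontal axis) at each of the 47 member spots, named by gene and spot number, with its 95% interval over 6 arrays. No point lies beyond the dotted lines at 1.5-fold, and 1 interval, that of *hac108* on SAM 2.0, leaves out 0.

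The width of the intervals gives the precision of the ratios. At 45 of the 47 spots the 95% interval, not adjusted for the number of spots, lay within 1.5-fold in either direction. The exceptions were *hda106* spot 1617 on SAM 1.1, with an upper end of 1.52, and *hac108* spot 6707 on SAM 2.0, with an upper end of 1.60. Of the 41 spots with no saturated scan, 39 had such an interval, and at the 6 spots with a saturated scan the interval is no bound on the change. The lowest end was 0.696, at *hdt102* spot 3400 of SAM 1.1. Intervals within these limits were found at 91.6%, 89.7% and 99.2% of all spots of the 3 chips. The ranges of ns mutant and nonmutant signal over the arrays overlapped at 47 of 47 spots. The share over all spots is not given here, so this count does not set the members apart. The SAM types share each array, and ranges leave out this pairing, so they can overlap where the ratio is steady. This holds for the ranges of single genes and spots below as well. RNA of whole SAMs cannot tell fewer cells with a transcript from less of it in each cell.

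Since most genes had several spots, 1 value per gene and chip was also fitted, the mean over the gene's spots, for all 583, 510 and 598 named genes of the chips. Of the 18 pairs of member gene and chip, 7 were higher and 11 lower in ns mutant SAMs, none passed the limma adjusted threshold, and 2 had an unadjusted p under 0.05. The shares of all named genes past the adjusted threshold were 0.0%, 0.196% and 0.0%, and the shares under an unadjusted 0.05 were 4.63%, 6.08% and 5.35%. Of all named genes, 51.8%, 51.4% and 57% were lower on SAM 1.1, 2.0 and 3.0. The lowest limma adjusted p of a member gene was 0.792.

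*hdt102*, the HD2-type gene with the most spots, had ratios below 1 at all 6 of its spots on SAM 1.1 and all 5 on SAM 3.0, and at 1 of 3 on SAM 2.0. Its log2 ratios lay between -0.24 and -0.06 at the SAM 1.1 spots, between -0.05 and 0.05 at those of SAM 2.0, and between -0.11 and -0.0069 at those of SAM 3.0. As 1 value per chip they were -0.15 ± 0.078, 0.0015 ± 0.104 and -0.05 ± 0.063 (SAM 1.1, 2.0 and 3.0). The limma adjusted p-values of these were 0.868, 0.995 and 0.901.

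On SAM 1.1 the mean of the *hdt102* spots carried a dye effect larger than the ns effect, log2 0.29 for Cy5 over Cy3. The measured log2 ratios of ns mutant to nonmutant were -0.54, -0.45 and -0.36 in replicates 1, 3 and 5, where the ns mutant was in Cy3. They were 0.09, 0.13 and 0.20 in replicates 2, 4 and 6, where it was in Cy5. The sign of the measured ratio thus followed the dye. With the dye effect taken out, replicates 1 to 6 gave -0.24, -0.20, -0.16, -0.16, -0.06 and -0.10, below 0 on 6 of 6 arrays, with an SD of 0.0654. The dye effect was fitted to these same 6 arrays, and taking it out gives both dye orientations the same mean. The count of 6 of 6 is thus not 6 independent agreements, and the SD does not allow for the fitted dye effect. The same holds for all values given with the dye effect taken out. The ordinary regression without moderation, the methods' t-test, gave an unadjusted p of 0.00668 and an adjusted p of 0.487 for this value, with limma at 0.0804 and 0.868. Leaving out 1 replicate at a time gave -0.18 to -0.13, with -0.13 without replicate 1. Of the 583 named genes of this chip, each as 1 value, 51.8% were below 0, with a median of -0.0053. Of single spots with 1 listed gene 62.8% were below 0, and 0 of 5 meristem marker spots and 0 of 6 lateral organ marker spots lay above 0. Of the other lists read on this chip, 1 of 5 leaf blade marker spots and 3 of 7 vascular marker spots lay above 0. So did 2 of 5 spots of complex partners and 10 of 18 spots of the histone gene *his2b5*. The lists thus did not share 1 direction, and their part in the *hdt102* values was not tested.

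The corresponding signal of the *hdt102* spots on SAM 1.1, as the mean log2 signal relative to the median spot of the channel, was 0.66 at the lowest, 0.87 at the median and 1.04 at the highest in ns mutant SAMs, against 0.74, 1.05 and 1.26 in nonmutant SAMs. On SAM 2.0 these values were 3.83, 4.01 and 4.16 in ns mutant SAMs and 3.67, 4.04 and 4.31 in nonmutant SAMs. On SAM 3.0 they were 2.97, 3.15 and 3.30 in ns mutant SAMs and 3.04, 3.14 and 3.43 in nonmutant SAMs. The ranges of the SAM types overlapped on every chip. With the dye effect taken out, the ratios of replicates 1 to 6 were -0.22, -0.01, 0.12, -0.04, 0.10 and 0.06 on SAM 2.0, with 3 arrays on each side of 0. On SAM 3.0 they were -0.13, 0.06, -0.07, -0.09, -0.11 and 0.06, below 0 on 4 of 6 arrays.

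**Figure D3:**
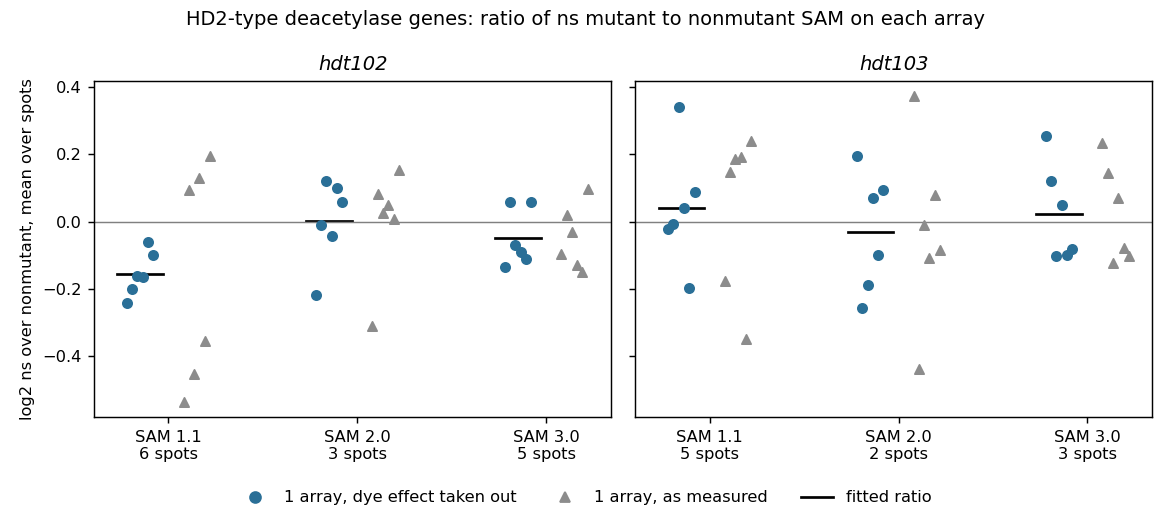
Log2 ratio of ns mutant to nonmutant signal (vertical axis) on each array for *hdt102* and *hdt103*, as the mean over the gene's spots on the chip, with the dye effect taken out (circles) and as measured (triangles); bars are the fitted ratios. The circles of *hdt102* on SAM 1.1 all lie below 0, between -0.24 and -0.06, while the triangles fall on both sides.

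The *hdt102* spots chosen by smallest p are part of the means above, so they add no separate evidence. Spot 6310 of SAM 1.1 (DV491006) had the smallest p of this gene, with a log2 ratio of -0.23 ± 0.11 (limma adjusted p = 0.83). Its signal was 2.29, 2.41 and 2.53 at the lowest, median and highest ns mutant sample and 2.09, 2.60 and 3.47 in nonmutant SAMs, and the nonmutant range enclosed that of the mutant. The measured ratios in replicates 1 to 6 were -0.57, 0.29, -1.05, 0.19, -0.55 and 0.30, again negative where the ns mutant was in Cy3.

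At spot 13718 of SAM 3.0 (DN221482) the log2 ratio was -0.11 ± 0.085 (limma adjusted p = 0.883), and it was measured below 0 in 5 of 6 arrays, at -0.39, 0.21, -0.08, -0.08, -0.22 and -0.12. Its signal was 1.02, 1.38 and 1.89 in ns mutant SAMs and 1.103, 1.57 and 2.01 in nonmutant SAMs at the lowest, median and highest sample. These ranges overlapped over most of their length.

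The brightest *hdt102* cDNA, BM078588, gave ratios close to 1 on both of its chips. At spot 10279 of SAM 2.0 the log2 ratio was 0.0051 ± 0.13, and at spot 10087 of SAM 3.0 it was -0.02 ± 0.077. The measured ratios of replicates 1 to 6 were -0.11, 0.10, 0.04, -0.21, 0.06 and 0.15 on SAM 2.0, and -0.09, -0.0070, 0.06, 0.02, -0.23 and 0.16 on SAM 3.0. Both sets lay on either side of 0. The signal was saturated on 3 of the 6 scans at spot 10279 and 9 of the 18 scans at spot 10087, which bounds what a ratio there can show. Its log2 signal at the lowest, median and highest sample was 3.39, 4.74 and 4.94 in ns mutant SAMs and 3.24, 4.86 and 4.97 in nonmutant SAMs on SAM 2.0. On SAM 3.0 it was 3.66, 4.34 and 4.73 in ns mutant SAMs and 3.89, 4.31 and 4.72 in nonmutant SAMs.

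*hdt103*, the other HD2-type gene, had 7 spots with a higher and 3 with a lower ratio, and no direction was shared by all its spots on SAM 1.1 or SAM 2.0. As 1 value per chip the log2 ratios were 0.04 ± 0.093, -0.03 ± 0.109 and 0.02 ± 0.072 (SAM 1.1, 2.0 and 3.0), with limma adjusted p-values of 0.94, 0.995 and 0.971. With the dye effect taken out, replicates 1 to 6 gave -0.02, -0.0055, 0.34, 0.04, -0.20 and 0.09 on SAM 1.1. They gave 0.19, -0.26, -0.19, 0.07, -0.10 and 0.10 on SAM 2.0, and 0.26, 0.12, -0.10, 0.05, -0.10 and -0.08 on SAM 3.0. On each chip 3 arrays lay above 0 and 3 below. The mean signal of its spots was 1.43, 1.93 and 2.12 at the lowest, median and highest sample of ns mutant SAMs and 1.60, 1.87 and 2.02 in nonmutant SAMs on SAM 1.1. On SAM 2.0 it was 2.69, 2.77 and 2.87 in ns mutant SAMs and 2.33, 2.86 and 3.17 in nonmutant SAMs, and on SAM 3.0 it was 2.50, 2.78 and 3.14 in ns mutant SAMs and 2.41, 2.76 and 3.22 in nonmutant SAMs. In each pair the ranges overlapped.

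The *hdt103* spots with the smallest p on SAM 2.0 pointed in opposite directions. Spot 2560 (DY470765) had a log2 ratio of -0.15 ± 0.14 and spot 12775 (BI096829) one of 0.09 ± 0.15, with limma adjusted p-values of 0.866 and 0.945. The measured ratios were 0.26, -0.29, -0.44, -0.25, 0.31 and -0.47 at spot 2560, below 0 in 4 of 6 arrays. At spot 12775 they were 0.48, -0.58, 0.42, 0.03, -0.14 and 0.31, above 0 in 4 of 6. Spot 15909 of SAM 1.1 (AI622149), the brightest *hdt103* spot of that chip at percentile 99.1, had a ratio of 0.994 with a 95% interval of 0.843 to 1.17, and its measured log2 ratios were 0.21, -0.48, 0.36, -0.15, 0.19 and -0.17.

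A dye effect past the adjusted threshold was found at 1 member spot, *hdt103* 14759 of SAM 3.0 (log2 0.39, Cy5 over Cy3, limma adjusted p = 0.0344), where the ns effect was 0.0012. The fitted dye effect exceeded the ns effect in size at 33 of the 47 member spots. The shares of all spots with such dye effects are not given here, so these counts do not set the members apart.

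Of the RPD3-type or HDA1-type genes, *hda106* had a ratio above 1 at all 3 of its spots. As 1 value on SAM 1.1 its log2 ratio was 0.25 ± 0.094 (limma adjusted p = 0.868), the largest of the member genes of that chip, and 0.06 ± 0.090 at its spot on SAM 3.0 (limma adjusted p = 0.909). The limma unadjusted p on SAM 1.1 was 0.0279, and it was above 0.05 without replicate 1 (0.0761), 2 (0.063), 4 (0.0894) or 5 (0.0885). With the dye effect taken out, the mean of its spots on SAM 1.1 was 0.39, 0.27, 0.01, 0.44, 0.35 and 0.04 in replicates 1 to 6, above 0 on 6 of 6 arrays, and as measured it was above 0 on 5 of 6. At its SAM 3.0 spot, 8721, replicates 1 to 6 gave -0.07, -0.07, -0.19, 0.26, -0.02 and 0.42 with the dye effect taken out. There 2 of 6 arrays were above 0, and without replicate 6 the fitted value was -0.035.

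At *hda106* spot 1617 (CA829792 and CA829637) the log2 ratio was 0.30 ± 0.14 (limma adjusted p = 0.83). The spot was dim, at percentile 29.4, with a signal of 4.94 times the local background in ns mutant SAMs and 4.01 times in nonmutant SAMs. The log2 signal was -1.43, -1.04 and -0.77 at the lowest, median and highest sample in ns mutant SAMs and -1.97, -1.29 and -0.84 in nonmutant SAMs. The ranges overlapped, and the measured ratios of 0.45, 0.54, 0.45, 0.49, 0.27 and -0.43 were above 0 in every replicate but replicate 6.

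*hda110* was measured at 1 spot, 12227 of SAM 3.0 (DN230792), with a log2 ratio of -0.20 ± 0.11 (limma adjusted p = 0.879). The measured ratios were 0.37, -0.24, -0.39, -0.32, -0.16 and -0.43, below 0 in 5 of 6 replicates, and the value without replicate 1 was -0.325. With arrays weighted by quality it was 0.0020 with weights from all spots and -0.083 with weights from the values per gene. Its signal was 0.55, 1.27 and 1.73 at the lowest, median and highest sample in ns mutant SAMs and 0.99, 1.30 and 1.92 in nonmutant SAMs, with overlapping ranges. *HDA108* had log2 ratios of -0.19 ± 0.12 on SAM 1.1 and -0.04 ± 0.14 on SAM 2.0, *hda113* one of -0.03 ± 0.080 on SAM 3.0, and the 3 *rpd3* spots lay between -0.07 and 0.07. None of these spots had a p among the 2 smallest of the deacetylases of its chip. The *rpd3* cDNA on 2 chips, BM073350, gave -0.07 on SAM 2.0 and -0.04 on SAM 3.0.

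**Figure D4:**
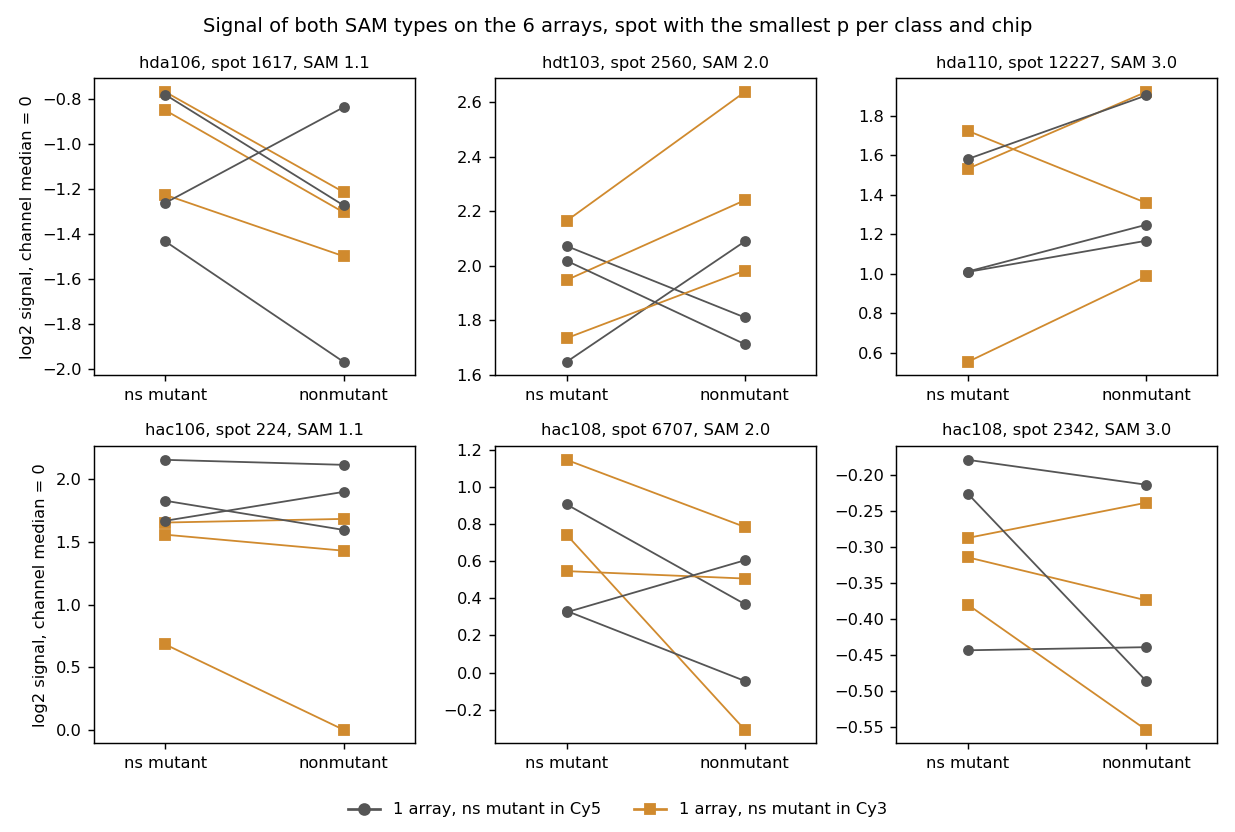
Log2 signal relative to the median spot of the channel (vertical axis) in ns mutant and nonmutant SAMs on the 6 arrays, joined by array, at the spot with the smallest p of each class (deacetylases above, acetyltransferases below) on each chip; colours give the dye of the ns mutant. The ranges of the SAM types overlap in every panel, and at *hac108* spot 6707 of SAM 2.0 the ns mutant was the higher on 5 of 6 arrays.

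Among the acetyltransferases, *hac108* had a ratio above 1 at all 3 of its spots, with log2 values of 0.35 on SAM 2.0 and of 0.08 and 0.06 on SAM 3.0. At spot 6707 of SAM 2.0 (BG360829) the ratio was 1.27, with a 95% interval of 1.01 to 1.60, and the limma unadjusted p of 0.0385 became 0.761 after adjustment. Without moderation, the methods' t-test gave an unadjusted p of 0.148 and an interval of 0.875 to 1.85. The spot lay at percentile 57.7, at 10.1 times the local background in ns mutant SAMs and 8.43 times in nonmutant SAMs. Its log2 signal was 0.33, 0.65 and 1.15 at the lowest, median and highest sample in ns mutant SAMs and -0.31, 0.44 and 0.79 in nonmutant SAMs. The ranges overlapped. The measured ratios in replicates 1 to 6 were 0.54, 1.05, 0.38, 0.04, -0.28 and 0.36, above 0 in 5 of 6, and with the dye effect taken out 4 of 6 were above 0. Leaving out replicate 2, which had the highest ratio, gave 0.21, and leaving out replicate 5, the only one measured below 0, gave 0.47. On the same chip 9 of 12 leaf blade marker spots were above 0, with a median log2 ratio of 0.10 and a median percentile of 30.4, and 3 of them, all of *Ppdk1*, had an unadjusted p under 0.05 and 0 an adjusted one. Of all spots of the chip, 6.48% were under the unadjusted limit. The leaf blade markers *rbcS* and *pep1* had means of -0.02 there. Of the other markers on this chip, 5 of 8 meristem, 1 of 4 lateral organ and 0 of 2 vascular spots were above 0. On SAM 3.0, 1 of 3 leaf blade marker spots was above 0. The part of the leaf blade markers in the *hac108* value was not tested.

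At *hac108* spot 2342 of SAM 3.0 (DN234167) the log2 ratio was 0.08 ± 0.077 (limma adjusted p = 0.91). The measured ratios were -0.05, 0.03, 0.06, 0.26, -0.0044 and 0.17, above 0 in 4 of 6 arrays. The log2 signal was -0.44, -0.30 and -0.18 at the lowest, median and highest sample in ns mutant SAMs and -0.55, -0.41 and -0.21 in nonmutant SAMs, again overlapping. As 1 value for SAM 3.0 *hac108* had a ratio of 1.05, with a 95% interval of 0.957 to 1.15. This is the mean of 2 spots. The other, 13417, lay at percentile 11.1, with a signal 1.71 and 1.82 times the local background in ns mutant and nonmutant SAMs. Its low signal limits what the mean can show.

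*hac106*, the other acetyltransferase gene, had 5 spots higher and 5 lower, with log2 ratios from -0.09 to 0.14. As 1 value per chip it was -0.0015 ± 0.102 on SAM 1.1 and -0.01 ± 0.070 on SAM 3.0 (limma adjusted p = 0.995 and 0.976). These values put its ratio between 0.85 and 1.17 on SAM 1.1 and between 0.889 and 1.1 on SAM 3.0 at 95% confidence. The spots with the smallest p were 224 on SAM 1.1 (DV621138, 0.14 ± 0.13), 2517 on SAM 1.1 (CB815849 and CB816381, -0.07 ± 0.12) and 3656 on SAM 3.0 (BM073581, -0.09 ± 0.089). BM073581 had a like value, -0.09 ± 0.16, on SAM 1.1.

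The arrays of *hac106* scattered around 0. Measured ratios in replicates 1 to 6 were -0.03, 0.04, 0.68, 0.23, 0.13 and -0.23 at spot 224, and -0.46, -0.20, -0.37, 0.46, -0.36 and 0.51 at spot 2517. At spot 3656 they were 0.17, -0.26, -0.12, -0.46, -0.32 and 0.48. The spots of this gene with the highest signal were 11097 on SAM 1.1 (DV491294, percentile 94.7) and 1124 on SAM 3.0 (DN222087, percentile 98.5), with log2 ratios of 0.06 ± 0.14 and 0.03 ± 0.078. Measured ratios at spot 11097 were 0.61, -0.27, -0.47, 0.11, 0.22 and 0.17, and at spot 1124 they were -0.0041, 0.0068, -0.20, 0.27, 0.05 and 0.04. At both, 4 of 6 arrays were above 0.

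The signal ranges of *hac106* overlapped too. At spot 224 the lowest, median and highest log2 signal was 0.68, 1.66 and 2.16 in ns mutant SAMs and -0.0012, 1.64 and 2.12 in nonmutant SAMs, and at spot 11097 it was 2.54, 3.07 and 3.56 in ns mutant SAMs and 2.82, 2.92 and 3.04 in nonmutant SAMs. At spot 1124 of SAM 3.0 it was 3.28, 3.57 and 3.98 in ns mutant SAMs and 3.20, 3.58 and 3.92 in nonmutant SAMs.

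The classes were then set side by side. The median log2 ratio of deacetylase spots was -0.08, -0.02 and -0.02 on SAM 1.1, 2.0 and 3.0, with 9 of 14, 4 of 8 and 8 of 12 spots below 0. That of acetyltransferase spots was -0.02 on SAM 1.1, 0.35 on SAM 2.0, where it is the single *hac108* spot, and 0.02 on SAM 3.0, with 3 of 6, 0 of 1 and 2 of 6 spots below 0. On SAM 1.1 all acetyltransferase spots were of *hac106*. The medians of all spots were -0.02, 0.0037 and -0.00097, with 54.4%, 49.1% and 50.4% below 0. Of spots with 1 listed gene, 62.8%, 51.4% and 58% were below 0, so the counts of deacetylase spots do not set that class apart. On SAM 1.1 the HD2-type spots had a median of -0.10 and the RPD3-type or HDA1-type spots one of 0.20, from 3 spots.

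Deacetylases minus acetyltransferases, as class medians within an array with the dye effects taken out, differed from array to array by more than they differed from 0. On SAM 1.1 the difference was -0.36, 0.27, 0.32, -0.13, -0.03 and -0.25 in replicates 1 to 6. On SAM 2.0 it was -0.59, -1.01, -0.36, -0.04, 0.08 and -0.05, and on SAM 3.0 it was -0.12, 0.03, 0.12, -0.25, -0.03 and -0.14. It was below 0 on 4 of 6, 5 of 6 and 4 of 6 arrays, with medians of -0.08, -0.20 and -0.07. On every chip the range held 0. With 1 replicate left out, the medians moved between -0.26 (without replicate 3) and 0.042 (without 6) on SAM 1.1, between -0.47 (without 4) and -0.0039 (without 1) on SAM 2.0, and between -0.12 (without 2) and 0.022 (without 6) on SAM 3.0.

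**Figure D5:**
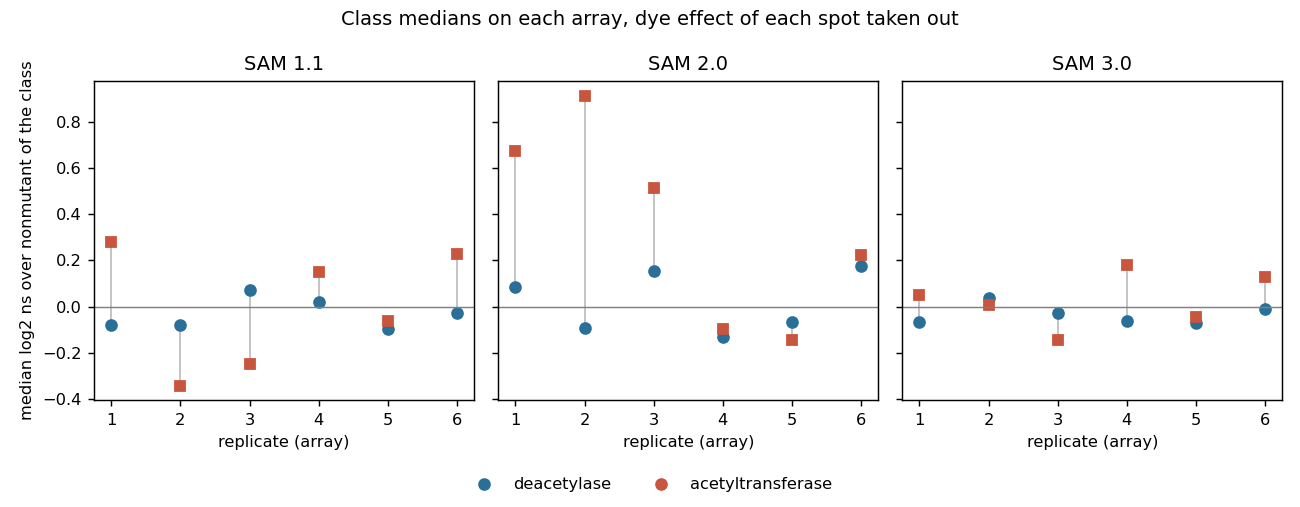
Median log2 ratio of ns mutant to nonmutant signal (vertical axis) over deacetylase spots (circles) and acetyltransferase spots (squares) on each array, with the dye effect of each spot taken out; grey lines join the classes of an array. The acetyltransferase medians spread more widely, from -0.34 to 0.28 on SAM 1.1, where the deacetylase medians lie between -0.10 and 0.07, and on SAM 2.0 they are a single spot.

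Genes that work with these enzymes were read the same way. Of the partners of acetyltransferase and deacetylase complexes and readers of acetylated histones, 7 genes were named, at 28 spots: the adaptor *ada2*, the RbAp46/48-like proteins *nfc101*, *nfc102* and *nfc103*, the bromodomain gene *gte102*, the enhancer of polycomb gene *epc101*, and *hxa103*. Their log2 ratios ran from -0.20 to 0.24, with 9 spots higher and 19 lower, and 0 of 28 had an unadjusted p under 0.05. On SAM 1.1, 2.0 and 3.0, 5.18%, 6.48% and 5.19% of all spots were under that limit. Of spots with 1 listed gene, 62.8%, 51.4% and 58% were lower, so these counts do not set the partners apart. *nfc101*, which binds histones in deacetylase and other complexes, was lower at both of its SAM 1.1 spots, with a mean log2 ratio of -0.18, and its mean was -0.02 on SAM 2.0 and -0.05 on SAM 3.0. Its relative *nfc102* had means of -0.19, -0.06 and -0.11 on SAM 1.1, 2.0 and 3.0, and *nfc103* had 0.24, 0.03 and 0.05. The substrate genes were represented by the histone H2B gene *his2b5* alone, at 21 spots with log2 ratios from -0.21 to 0.28 and a median signal percentile of 84.5. It was higher at 13 spots and lower at 8, and 0 of 21 had an unadjusted p under 0.05. The shares over the chips given for the partners are the background here too.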

How the data were processed

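The authors deposited, for both dyes, the intensity read at the spots and around them by their image processing of the scans (Digital Genome System). They also deposited the natural log of both channels after LOWESS and median centring, used here as an alternative after change to log2. No columns of other samples were present. From the intensities, background was corrected by normexp (offset 50), log ratios were normalized by loess (span 0.3) and channel medians were set to 0. The 3 scans of a SAM 3.0 array were averaged, since 18 of 18 scans correlated best with a scan of their own number. A dye effect and an ns effect were fitted over 6 arrays with limma 3.58.1 (R 4.3.3, moderated), with 4 residual degrees of freedom a spot, and Benjamini-Hochberg adjustment was made chip by chip. Unadjusted 95% intervals are those of the moderated fit. The procedure was tested on simulated data.

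The array pairs the samples: ns mutant and nonmutant signals of an array deviated together from their group means (r = 0.514 to 0.698, 0.355 to 0.749 and 0.638 to 0.883 on SAM 1.1, 2.0 and 3.0, against at most 0.295, 0.347 and 0.344 between arrays). Log ratios of arrays with the same dye orientation correlated at -0.122 to 0.541. The limma p-values rest on the spread of log ratios between arrays, moderated with variance information shared over the spots or named genes of the chip. In that spread, pools of SAMs, amplification, labelling and hybridization are not told apart. The number of arrays limits the precision.

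Genes were named from the platform annotation and the maize gene table of RefSeq. Of 49280 spots, 3845 had 1 symbol, 24 had several and 45411 had none. Members and lists were chosen with earlier results of these data known. All 6 arrays are given for the 2 spots with the smallest p and the brightest spot per class and chip, and for genes on all 3 chips. The fit with 1 value per gene was added after the data were seen. Sequences and genome positions are not used here.

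Alternatives were other background corrections, centring without loess, scaling between arrays, single scans, the authors' values, dim spots left out, array weights, fits with no dye intercept or no replicate block, the methods' t-test (the ordinary regression), and each replicate left out. Besides the members, lists of complex partners, core histones and meristem, lateral organ, leaf blade and vascular markers were read. Of the vascular markers, 8 spots were higher and 9 lower, with 0 of 17 under an unadjusted 0.05. Of all spots, 5.18%, 6.48% and 5.19% were under it on SAM 1.1, 2.0 and 3.0.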

Additional observations from a re-analysis of the deposited data

How the results depend on the processing

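No member spot or gene passed the limma adjusted threshold under any alternative. At an unadjusted p under 0.05, 1 member spot was found, and 5.55% of all spots. The count was 0 with the methods' t-test (5.1% of all spots), no dye intercept (3.05%), scaling between arrays (4.9%) or the authors' values (4.74%). It was 2 with median centring without loess (4.61%) or the high scan alone (5.44%), and 6 with array weights (17.0%). Without the replicate block that pairs ns mutant and nonmutant RNA on an array it was 0, with 0.221% of all spots. Leaving out 1 replicate gave 0 to 2, with 4.43% to 9.87% of all spots. For 1 value per gene the count of 2 became 0 with no replicate block, where 0.167% to 0.686% of all named genes of a chip were under 0.05. It was 1 with scaling between arrays, plain background subtraction or the authors' values (4.46% to 5.85% of all named genes). It was 3 with no background correction, the low scan alone or the methods' t-test (4.8% to 6.86%), and 1 to 3 with a replicate left out (1.89% to 14.9%). The partner list had 1 such spot with the methods' t-test or array weights and 0 to 1 with a replicate left out, and *his2b5* had 1 and 3 with the methods' t-test and array weights. The difference between the classes turned sign without replicate 6 of SAM 1.1 (0.042) or of SAM 3.0 (0.022). The deacetylase median of SAM 1.1 was -0.12 to -0.0096 with a replicate left out. Deacetylase median percentiles were 64.7 (SAM 1.1) and 90 (SAM 2.0) by signal over local background, and by 1 value per gene they were 49.6, 75.9 and 81.4 on SAM 1.1, 2.0 and 3.0, with 78.0 and 57.2 for acetyltransferases of SAM 1.1 and 3.0. Log2 ratios turned sign at 8 of the spots described singly, and the cause was not tested. With median centring without loess *hdt103* 15909 was 0.075 and *hdt102* 10087 was 0.0020, with array weights *hdt102* 10279 was -0.018 and *hda110* 12227 was 0.0020, and with single scans *hdt102* 10087 was 0.034 (low) and 0.030 (mid) and *hac106* 1124 was -0.016 (low). With a replicate left out, *hdt103* 15909 ran from -0.039 to 0.045, *hac106* 2517 from -0.13 to 0.044, *hac106* 11097 from -0.062 to 0.21, *hdt103* 12775 from -0.011 to 0.21, *hdt102* 10279 from -0.029 to 0.061, *hdt102* 10087 from -0.046 to 0.022 and *hac106* 1124 from -0.012 to 0.064. Saturation limits the ratios of the brightest *hdt102* spots, and low signal over background those of *hac108* 13417 and *HDA108* 9209.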
